A study of Danio rerio with 6 samples.

Results

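The genes described are the core factors of nonsense-mediated mRNA decay (NMD), namely *upf1*, *upf2*, *upf3a*, *upf3b*, *smg1*, *smg5*, *smg6*, *smg8* and *smg9*, in zebrafish with a frameshift allele of *zrsr2*, which encodes a protein of the minor spliceosome. They were chosen by name from the gene names that the transcript tables carry. The rule used no measured value, but earlier results of these data were known when the choice was made. Of the 9 genes, 8 have at least 1 transcript under that name, among 31794 named genes and 77316 transcripts in all, and *upf2* was not matched by name and was not analysed here. The 8 genes have 15 named transcripts and 4 transcripts that were assembled from the reads and carry no gene name, which makes 19.

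NMD is the surveillance pathway that removes mRNAs on which the ribosome stops too early. On a spliced mRNA, protein complexes left upstream of each exon junction mark a stop codon as premature when they remain downstream of it, and UPF3 and UPF2 link these marks to the helicase UPF1. The kinase SMG1, held in check by SMG8 and SMG9, then phosphorylates UPF1, which recruits the endonuclease SMG6 and the adaptor SMG5 and so leads to decapping, deadenylation and decay. Retained introns often bring a premature stop codon into the reading frame, so the pathway is a usual fate of mis-spliced mRNA. These roles are known mainly from human cells, worms, flies and yeast.

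RNA-Seq of total RNA was made from 6 pools of 10 embryos each, of the Tab5 strain at 3 days post fertilization (dpf), with the heads taken off for genotyping. The 3 wild-type (WT) pools came from clutches 12, 13 and 15, bred from WT siblings, and carry no engineered allele. The 3 mutant pools came from clutches 3, 4 and 7, bred from heterozygous fish, and hold embryos homozygous for *zrsr2* hg129, a single CRISPR frameshift allele that is present in every cell of the body. The labels give no treatment. The genotypes share no clutch, and RNA integrity was higher in all WT pools than in any mutant pool, so that clutch, cross, RNA integrity and genotype cannot be told apart. The p-values measure the spread between pools of different clutches. Each pool is a bulk sample of bodies without heads, in which fewer cells of a type and less RNA per cell cannot be told apart.

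Levels are given in FPKM, the fragments assigned to a transcript divided by its length and by the size of the library. The aligned sequence on transcripts came to between 7.505 and 9.255 gigabases per WT pool and between 8.855 and 9.168 gigabases per mutant pool. Transcripts without a gene name took 23.0 to 26.1% of this sequence in the WT and 26.0 to 29.2% in the mutant. The targeted gene *zrsr2* was at 1.38, 1.495 and 1.39 FPKM in WT pools 12, 13 and 15 and at 0.513, 0.793 and 1.06 FPKM in mutant pools 3, 4 and 7, with no overlap (log2 fold change -0.62, SE 0.228, adjusted p = 0.173). All 15 markers of muscle, epidermis, blood, liver and notochord were above 1 FPKM in every pool, with a summed level of 21288 to 22928 FPKM in WT and 23679 to 27173 FPKM in mutant pools, and 6 of the 15 had an adjusted p below 0.05 between the genotypes. The 11 markers of photoreceptors, lens and forebrain were each below 1 FPKM in at least 1 pool, with *opn1sw1* at 0 throughout, and summed to 1.90 to 3.02 FPKM in WT and 3.29 to 3.96 FPKM in mutant pools, with 1 of the 11 at an adjusted p below 0.05. Among all genes tested 3.68% had one. The part of these tissues and of this remnant of the head in the results was not tested.

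None of the NMD factors passed the test for a difference in mRNA level between the genotypes. By name, 6 genes could be tested, and 0 of the 6 had an adjusted p below 0.05 in limma, against 3.68% of the 19978 genes tested. With the assembled transcripts added to the gene they overlap, 8 genes could be tested and 0 of the 8 passed, against 8.99% of 21041 genes. None of them reached an unadjusted p below 0.05 either, a level that 23.0% of all genes tested by name and 27.3% of those with assembled transcripts reached. When a log2 fold change of 1 or more in either direction was also required, which 2.79% and 4.61% of all genes met, the count stayed 0 under both definitions. limma-voom on reads estimated from coverage also called 0 of the 6. Adjusted p-values ran from 0.189 to 0.831 over the 8 genes. With so few genes, a count of 0 is near the shares of 3.68% and 8.99%, and does not set the factors apart from all genes.

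The fold changes fell on both sides of 0. With assembled transcripts added, 4 genes had a positive and 4 a negative log2 fold change, between -0.35 for *upf3a* and 0.30 for *upf3b*, with a median of 0.00089 beside 0.01 over all genes. The standard errors of the 8 genes lay between 0.112 and 0.175 on the log2 scale, beside a median of 0.194 over all genes tested. The widest limits of their 95% intervals were -0.70 and 0.67, which are mutant to WT ratios of 0.615 and 1.59. A 2-fold change in either direction lay outside the interval of each of these 8 genes, while smaller changes lay inside.

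**Figure D1:**
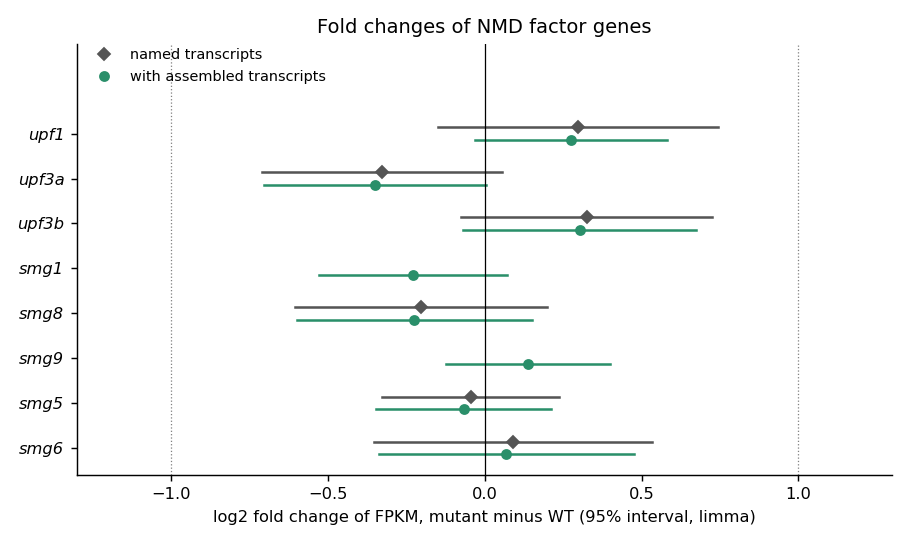
Log2 fold changes of FPKM (mutant minus WT, horizontal axis) of the 8 NMD factor genes, with bars for the 95% intervals of limma, by named transcripts (grey diamonds, 6 genes) and with assembled transcripts added (green circles, 8 genes). Each interval includes 0 and stays inside the dotted lines at -1 and 1, from -0.71 to 0.74 at the widest.

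Scaling between pools moved the values of all of these genes and turned the sign of 2 of the 8, *smg6* and *smg9*. The FPKM of most genes was lower in the mutant pools as deposited, with a median log2 fold change over all genes of -0.19, and median-of-ratios factors of 1.07 to 1.11 for WT and 0.86 to 0.982 for mutant pools brought it to 0.01. The median of the 6 NMD factors tested by name moved with it, from -0.19 to 0.02. Among called genes, 36.4% were higher in mutants after scaling (268 higher, 468 lower) and 13.3% without it (174 higher, 1130 lower). As deposited, the genotypes did not overlap for 4 of the 8 factors (*upf3a*, *smg1*, *smg5* and *smg8*), beside 35.7% of all genes, with mutants lower in 4 of them and higher in 0, where 28.9% of all genes were lower and 6.82% higher in this way. After scaling they did not overlap for 2 of the 8 (*upf1* and *smg9*, both higher in mutants), beside 33.2% of all genes, of which 17.2% were lower and 16.0% higher.

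**Figure D2:**
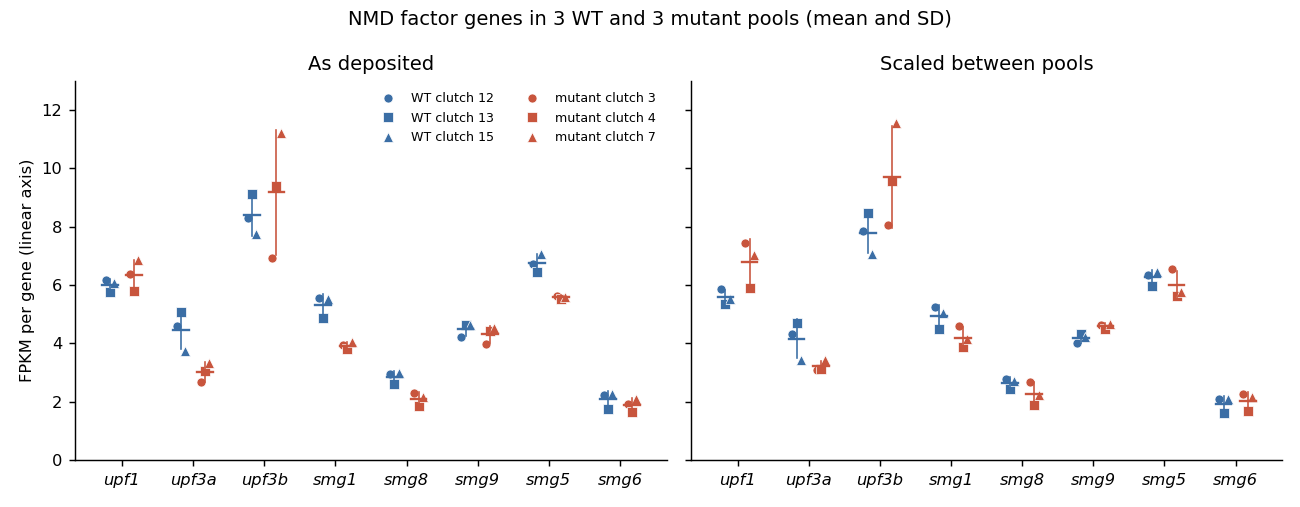
FPKM per gene (vertical axes, linear) of the 8 NMD factors in each pool, as deposited (left) and after scaling between pools (right), assembled transcripts included, with horizontal lines for means and vertical lines for 1 SD. *smg1*, *smg5*, *smg8* and *upf3a* have mutant pools below all WT pools on the left and overlapping pools on the right.

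*upf1* encodes the RNA helicase at the centre of the pathway and occupies the plus strand of chromosome 2, positions 56168619 to 56237133 (GRCz11). Its 4 transcripts together were at 6.18, 5.77 and 6.05 FPKM in WT pools 12, 13 and 15 and at 6.39, 5.80 and 6.85 FPKM in mutant pools 3, 4 and 7. The WT mean was 6.0 ± 0.209 and the mutant mean 6.34 ± 0.528 FPKM (SD, n = 3), with mutant pool 4 inside the WT range. After scaling, the mutant pools at 7.44, 5.90 and 7.04 FPKM lay above the WT pools at 5.85, 5.36 and 5.53 FPKM. The exact permutation test gave p = 0.1 for the scaled values, the smallest that 3 pools against 3 can reach. In limma the log2 fold change was 0.30 by named transcripts (SE 0.186, 95% interval -0.15 to 0.74, adjusted p = 0.387) and 0.27 with the assembled transcript (SE 0.131, adjusted p = 0.227).

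*upf1* had a pair of leading isoforms, and their balance varied more among the pools of a genotype than between the genotype means. Each clutch gave 1 pool, so clutch and library cannot be told apart in this spread. The annotated ENSDART00000021011, with 24 exons and 8456 nucleotides, took 84.1, 75.3 and 59.1% of the FPKM of the gene in WT pools and 76.3, 75.9 and 65.0% in mutant pools. The assembled MSTRG.10911.3 also has 24 exons, starts 787 bases later and has 7666 nucleotides, and it took 14.5, 24.0 and 38.3% in WT and 21.5, 23.3 and 33.2% in mutant pools. The mutant range thus lay within the WT range for both isoforms, and the balance of the assembled form against the rest of its locus differed by 0.09 on the log2 scale (SE 0.546, adjusted p = 0.961 in limma). The levels of the annotated form alone were 5.20, 4.34 and 3.58 FPKM in WT and 4.88, 4.40 and 4.45 FPKM in mutant pools. The remaining isoforms were rare. ENSDART00000162582, a form of 9 exons from the 3′ part of the gene, was picked out after its values were seen because its share did not overlap, at 0.37 to 0.41% in WT and 0.58 to 0.68% in mutant pools. Its level was at most 0.0464 FPKM, so its ratio to the rest of the locus rests mostly on the 0.1 FPKM added to each value. That ratio did not pass the test (adjusted p = 0.822 in limma).

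*upf3a* and *upf3b* are paralogs whose human products bind the exon junction complex and bring UPF2 to it, with UPF3B the more active of the pair in human cells. *upf3a* occupies chromosome 9, minus strand, positions 34902971 to 34915394. It was at 4.58, 5.08 and 3.74 FPKM in WT pools (4.47 ± 0.675, SD, n = 3) and at 2.66, 3.06 and 3.34 FPKM in mutant pools (3.02 ± 0.340, SD, n = 3). As deposited the groups did not overlap, but after scaling mutant pool 7 at 3.46 FPKM was above WT pool 15 at 3.36 FPKM. *upf3a* had the most negative log2 fold change of the 8 genes, -0.33 by named transcripts (SE 0.159, 95% interval -0.71 to 0.06, adjusted p = 0.278 in limma). Over all alternatives the value stayed between -0.54 and -0.24, with adjusted p from 0.104 to 0.523.

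The isoforms of *upf3a* were spread more widely among mutant than among WT pools. ENSDART00000139608, with 11 exons and 1775 nucleotides, took 78.9, 71.9 and 70.4% of the gene in WT pools and 56.5, 86.9 and 94.9% in mutant pools 3, 4 and 7. ENSDART00000100728, with 10 exons and 1402 nucleotides, ends 295 bases short of it on the 3′ side. It took 21.1, 28.1 and 28.7% in WT pools and 43.5, 13.1 and 4.84% in mutant pools, so that mutant pool 3 lay above the WT range and mutant pools 4 and 7 below it. The exact permutation test on this share gave p = 0.6. In FPKM this form was at 0.967, 1.43 and 1.07 in WT and 1.16, 0.401 and 0.162 in mutant pools, with a log2 fold change of -0.98 and an SE of 0.636 (adjusted p = 0.488 in limma). A form of 5 exons, ENSDART00000129936, stayed at or below 0.87% in every pool.

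*upf3b* was the factor with the highest level and occupies chromosome 14, minus strand, positions 33339322 to 33351103. It was at 8.30, 9.12 and 7.75 FPKM in WT pools (8.39 ± 0.691, SD, n = 3) and at 6.92, 9.39 and 11.2 FPKM in mutant pools 3, 4 and 7 (9.18 ± 2.16, SD, n = 3). The mutant pools thus lay on both sides of the WT range, with an SD of 23.5% of their mean against 8.24% in WT. The log2 fold change was 0.32 (SE 0.166, 95% interval -0.08 to 0.72, adjusted p = 0.298 in limma). Opposite signs of *upf3a* and *upf3b* were not tested as a difference. The gene shares its assembled locus with the ribosomal protein gene *rpl39*, and with the whole locus summed the fold change was -0.55 (adjusted p = 0.214).

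Nearly all of *upf3b* was the form of 10 exons, ENSDART00000010019, at 96.4 to 98.9% of the gene over the 6 pools. The short ENSDART00000133248, with 2 exons, took 1.15, 1.79 and 2.71% in WT and 3.60, 1.66 and 2.70% in mutant pools. It was the only 1 of the 13 transcripts tested for isoform use with an unadjusted p below 0.05, where 11.9% of the 45949 transcripts tested for isoform use had one. Its balance against the whole locus, *rpl39* included, differed by 1.1 on the log2 scale (SE 0.413, adjusted p = 0.397 in limma). Against the other *upf3b* form alone the shares overlapped, and the exact permutation test gave p = 0.5.

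*smg1* encodes the kinase that phosphorylates UPF1 and occupies chromosome 3, minus strand, positions 31118026 to 31158437. Its annotated transcripts were listed at 0 in every pool except mutant pool 4, where 1 of them was at 0.0277 FPKM. The level was carried by assembled transcripts without a name that also have 62 exons each, of which MSTRG.16934.2 is 1 nucleotide shorter than the annotated ENSDART00000076796. The positions of their exons were not compared. With these, *smg1* was at 5.56, 4.85 and 5.51 FPKM in WT pools (5.31 ± 0.393, SD, n = 3) and at 3.94, 3.79 and 4.03 FPKM in mutant pools (3.92 ± 0.121, SD, n = 3). As deposited each mutant pool was below each WT pool, with p = 0.1 in the exact permutation test, the smallest possible. After scaling, mutant pool 3 at 4.59 FPKM was above WT pool 13 at 4.50 FPKM, and the log2 fold change of -0.23 did not pass the test (SE 0.129, 95% interval -0.53 to 0.07, adjusted p = 0.300 in limma). MSTRG.16934.2 made up the whole gene in every pool except mutant pool 4, at 99.3%, and WT pool 12, at 70.4%. In WT pool 12 another assembled form of 62 exons, MSTRG.16934.4, took the other 29.6% and was listed at 0 in the other pools.

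*smg8* and *smg9* encode the subunits that bind SMG1 and restrain its kinase activity in human cells. *smg8*, on chromosome 10, minus strand, positions 35238488 to 35248502, has 1 transcript of 4 exons. It was at 2.93, 2.60 and 2.98 FPKM in WT pools (2.84 ± 0.204, SD, n = 3) and at 2.30, 1.85 and 2.15 FPKM in mutant pools (2.10 ± 0.231, SD, n = 3), below every WT pool. After scaling mutant pool 3 at 2.68 FPKM was inside the WT range, and the log2 fold change was -0.20 (SE 0.167, 95% interval -0.61 to 0.20, adjusted p = 0.508 in limma).

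*smg9*, on chromosome 16, plus strand, positions 24721551 to 24733464, was carried by a single assembled transcript. Both annotated forms were listed at 0 in all 6 pools, and MSTRG.6582.1 held the whole level. Like ENSDART00000155754 it has 13 exons, but it starts 5 bases earlier and is 1 nucleotide longer. The positions of the exons were not compared. It was at 4.23, 4.64 and 4.62 FPKM in WT pools (4.50 ± 0.233, SD, n = 3) and at 3.99, 4.41 and 4.54 FPKM in mutant pools (4.31 ± 0.290, SD, n = 3), with mutant pools 4 and 7 inside the WT range. After scaling the order turned, with WT pools at 4.00, 4.31 and 4.22 FPKM and mutant pools at 4.64, 4.49 and 4.67 FPKM. The log2 fold change was 0.14 with scaling (SE 0.112, 95% interval -0.12 to 0.40, adjusted p = 0.472 in limma) and -0.060 without it.

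*smg5* and *smg6* encode the effectors that act on phosphorylated UPF1, an adaptor that leads to deadenylation and decapping, and the endonuclease that cuts the mRNA near the premature stop codon. *smg5*, on chromosome 16, plus strand, positions 45693413 to 45734213, has 1 transcript of 22 exons. It was at 6.72, 6.45 and 7.07 FPKM in WT pools (6.74 ± 0.312, SD, n = 3) and at 5.63, 5.53 and 5.61 FPKM in mutant pools (5.59 ± 0.0509, SD, n = 3). The mutant pools lay under the WT pools as deposited, and after scaling they were at 6.55, 5.64 and 5.81 FPKM against 6.30, 5.91 and 6.34 FPKM, with overlap. The log2 fold change was -0.05 (SE 0.117, 95% interval -0.33 to 0.24, adjusted p = 0.846 in limma), the narrowest interval of the 6 genes tested by name.

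*smg6*, on chromosome 10, minus strand, positions 35584647 to 35613752, has 1 transcript of 19 exons and was the factor with the lowest level. It was at 2.22, 1.73 and 2.27 FPKM in WT pools (2.07 ± 0.298, SD, n = 3) and at 1.93, 1.64 and 2.11 FPKM in mutant pools (1.89 ± 0.235, SD, n = 3). The pools overlapped on both scales. The log2 fold change was 0.09 with scaling (SE 0.184, 95% interval -0.35 to 0.53, adjusted p = 0.802 in limma) and -0.12 without it.

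**Figure D3:**
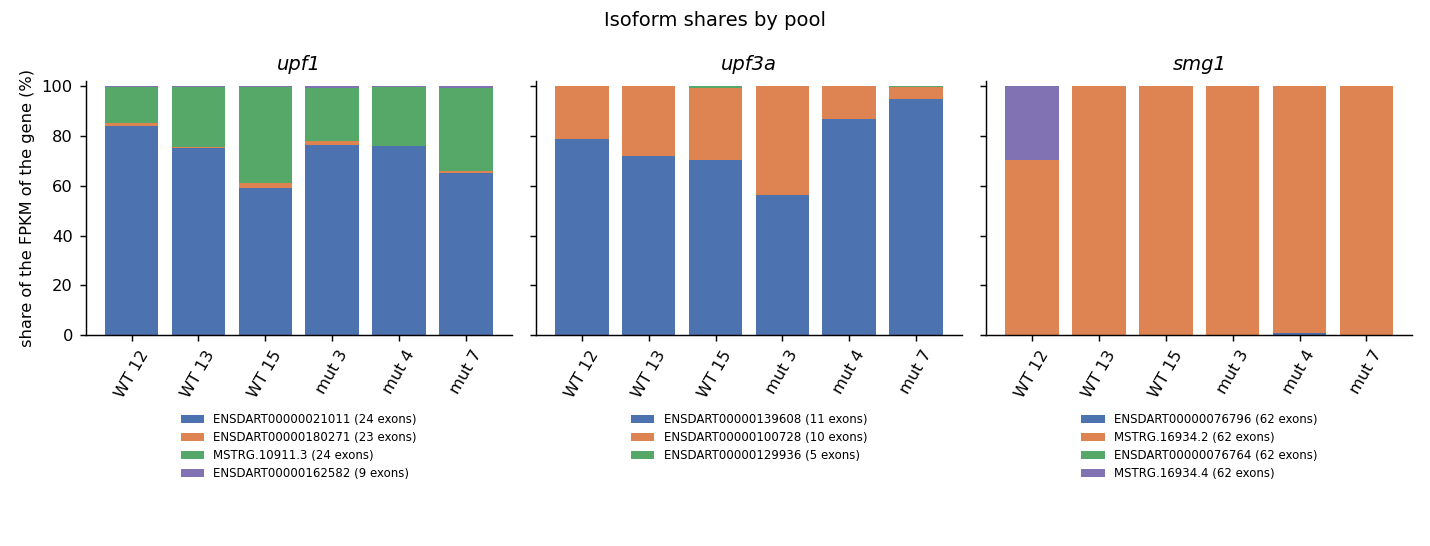
Stacked bars of the share of each transcript in the FPKM of its gene (vertical axis, %) in the 6 pools for *upf1*, *upf3a* and *smg1*, with colours for transcripts. The shorter form of *upf3a* takes 43.5% in mutant pool 3 and 4.84% in mutant pool 7, and a second assembled form of *smg1* appears only in WT pool 12.

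Across transcripts, 12 of the 19 were abundant enough to be tested for their own level, and 0 of the 12 passed, against 1.26% of the 43672 transcripts tested, with a lowest adjusted p of 0.430. An unadjusted p below 0.05 was reached by 0 of the 12, against 16.4% of all. Of the 13 tested for their balance within the locus, 0 passed, against 0.642% of 45949, with a lowest adjusted p of 0.397. Both counts are from limma. Not all of the 13 values describe a balance. For *smg9* the annotated forms were at 0, so its value of -0.060 is the change of its level without scaling. *upf1* ENSDART00000162582, *upf3a* ENSDART00000129936 and *smg1* ENSDART00000076796 were below 0.1 FPKM in every pool. Their ratios rest mostly on the 0.1 FPKM added to each value and on the rest of the locus. The mean read depth summed over the transcripts of a gene lay between 17.9 and 119 over the 8 genes and 6 pools, lowest for *smg6* and highest for *upf3b*.

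FPKM allows the factors to be ranked within a genotype. As deposited and with assembled transcripts, the WT means fell from *upf3b* (8.39 FPKM) through *smg5* (6.74 FPKM), *upf1* (6.0 FPKM), *smg1* (5.31 FPKM), *smg9* (4.50 FPKM), *upf3a* (4.47 FPKM) and *smg8* (2.84 FPKM) to *smg6* (2.07 FPKM). Neighbours in this order did not overlap in their pools except *smg9* and *upf3a*. In mutant pools the order was *upf3b* (9.18 FPKM), *upf1* (6.34 FPKM), *smg5* (5.59 FPKM), *smg9* (4.31 FPKM), *smg1* (3.92 FPKM), *upf3a* (3.02 FPKM), *smg8* (2.10 FPKM) and *smg6* (1.89 FPKM), in which *smg9* and *smg1*, and *smg8* and *smg6*, overlapped. Both the recognition factor *upf3b* at the top and the endonuclease *smg6* at the bottom kept their place. Among all genes tested, the WT mean of *upf3b* stood at percentile 80.5 and that of *smg6* at percentile 48.7, and the mutant means at 83.7 and 49.9.

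The profile of *upf1* by named transcripts over the 6 scaled pools was set beside those of 11787 genes with a mean of at least 1 FPKM, as the Euclidean distance between log2 values centred on each gene's mean. The nearest were *gata6*, a transcription factor of endoderm and heart, at 0.0754, *slc25a12*, a mitochondrial aspartate and glutamate carrier, at 0.1503, and *klhl20*, a ubiquitin ligase adaptor, at 0.163. Of the other NMD factors, *smg6* was at 0.573 (rank 1882), *smg5* at 0.590 (rank 2106), *upf3b* at 0.683 (rank 3438), *smg8* at 0.732 (rank 4150) and *upf3a* at 0.883 (rank 6018). After scaling, the WT pools of *upf1* varied by 19.7% of their mean by name and by 4.46% with the assembled form included. Whether the split of *upf1* between its named and assembled isoforms sets this profile was not tested. With assembled transcripts added to every gene, an alternative chosen after seeing the data, *gata6* fell to rank 2472 of 14092 genes, and the nearest were *otud5b* at 0.0632, *nudt4b* at 0.0694 and *lhx5* at 0.0719. On that definition *smg9* was the nearest NMD factor (rank 1039) and *upf3a* the farthest (rank 9543). With 6 pools these distances are a description only.

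Other genes of the pathway were listed by role in 6 lists of 53 genes, of which 51 were matched and 48 were tested by name. The lists were also drawn up with earlier results of these data known. In limma 4 of the 48 were higher in mutants and 0 lower at an adjusted p below 0.05, against 1.34% higher and 2.34% lower among all genes, and 11 had an unadjusted p below 0.05, a level that 23.0% of all genes reached. Their median log2 fold change was 0.03 beside 0.01 over all genes. With assembled transcripts added, 6 of 51 were higher and 1 lower, against 3.77% and 5.21%, with a median of 0.05. Among these called genes, *gspt1*, *ncbp2*, *ddx6*, *atf3* and *gadd45aa* gained no transcript, so their FPKM was the same under both definitions. Leaving out a pool took the number of called genes from 4 to between 0 (without WT pool 12) and 2 (without mutant pool 3), with 1 without each of the other pools.

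**Figure D4:**
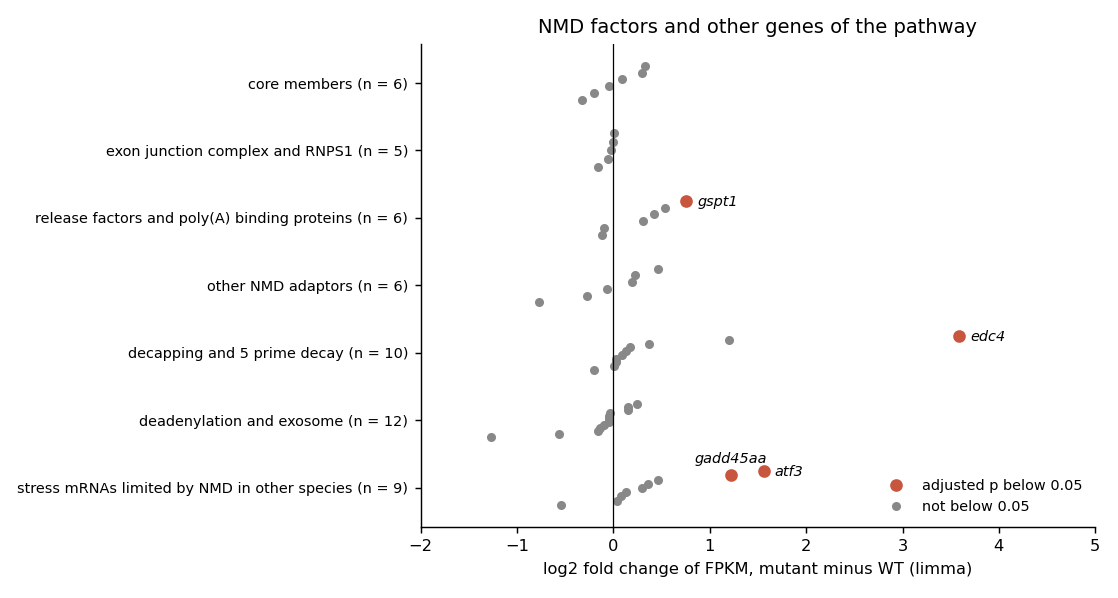
Log2 fold changes of FPKM (mutant minus WT, horizontal axis) of the 6 NMD factors tested by name and of 48 genes of the pathway by list, with each point a gene and red points for an adjusted p below 0.05 in limma. The 4 red points are *gspt1*, *edc4*, *atf3* and *gadd45aa*, all to the right of 0, and none is a core factor.

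The exon junction complex and its partner RNPS1 mark the junctions that NMD reads. Of the 5 genes tested of 6, 0 passed in limma, against 3.68% of all genes. None had an unadjusted p below 0.05, against 23.0%. Their log2 fold changes ran from -0.16 to 0.01, with a median of -0.02. The core subunit *magoh* had the largest, -0.16 (SE 0.289, adjusted p = 0.773), followed by its partner *rbm8a* at -0.06 (SE 0.155, adjusted p = 0.851). Both values changed sign when single pools were left out.

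Of the release factors and poly(A) binding proteins, 1 of 6 tested genes was higher and 0 were lower. Among all genes the shares were 1.34% and 2.34%. In this list 3 had an unadjusted p below 0.05, against 23.0% of all genes, with a median of 0.37 beside 0.01. With assembled transcripts added 2 of 7 were higher, against 3.77% of all genes, the other being *pabpc1b* (log2 fold change 0.57, adjusted p = 0.0497). The gene that rose was *gspt1*, which encodes eRF3, the GTPase that works with eRF1 in ending translation and touches UPF1 at a premature stop. It was at 13.6, 14.5 and 12.1 FPKM in WT pools and at 18.2, 19.1 and 21.1 FPKM in mutant pools, all above WT. The means were 13.4 ± 1.24 and 19.4 ± 1.503 FPKM (SD, n = 3), and the log2 fold change was 0.76 (SE 0.125, adjusted p = 0.0334 in limma). The call was lost without scaling (adjusted p = 0.0572) and without any single pool (adjusted p from 0.0562 to 0.111), while it passed in limma-voom (adjusted p = 0.0437) and with assembled transcripts added (adjusted p = 0.0162). No assembled transcript was added to *gspt1* itself. Its FPKM was the same in that fit, and only the scaling and the fit over all genes differed. Its paralog *gspt1l*, named for comparison outside the rule, was at 63.7, 72.9 and 71.4 FPKM in WT and 59.3, 54.6 and 51.8 FPKM in mutant pools as deposited. After scaling the pools of *gspt1l* overlapped, at 59.7, 66.8 and 64.1 FPKM in WT and 69.0, 55.6 and 53.7 FPKM in mutant pools. The log2 fold change of *gspt1l* was -0.10 (SE 0.136, adjusted p = 0.687 in limma). How reads that match both paralogs were divided is not given in the sources used here.

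Of the other adaptors, 0 of 6 tested genes passed in limma, against 3.68% of all genes. Among them 2 had an unadjusted p below 0.05, against 23.0% of all genes, and the median log2 fold change was 0.07. The cap-binding subunit *ncbp2* had the largest, at 7.85, 8.72 and 10.5 FPKM in WT and 4.55, 5.28 and 3.67 FPKM in mutant pools, without overlap. Its log2 fold change of -0.77 had an adjusted p of 0.0698 by name, and passed with assembled transcripts added (-0.80, adjusted p = 0.0358) and without scaling (adjusted p = 0.0329). No assembled transcript was added to *ncbp2*, so its FPKM was the same and only the scaling and the fit over all genes differed. *pnrc2*, which links UPF1 to decapping in human cells, followed at 0.46 (SE 0.163, adjusted p = 0.161).

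Of the genes for decapping and decay from the 5′ end, 1 of 10 was higher and 0 were lower. The shares over all genes were 1.34% and 2.34%. Here 2 had an unadjusted p below 0.05, against 23.0% of all genes, with a median of 0.11. With assembled transcripts added 2 of 10 were higher, against 3.77% of all genes. The gene that rose was *edc4*, the scaffold of the decapping complex, on chromosome 18, minus strand, positions 21858744 to 21911121. Its named transcripts were at 0.116, 0.339 and 0.530 FPKM in WT pools and 1.96, 9.45 and 3.50 FPKM in mutant pools, all above WT (0.328 ± 0.207 and 4.97 ± 3.95 FPKM, SD, n = 3). The log2 fold change was 3.59 (SE 0.596, adjusted p = 0.0334 in limma), and the call was lost in limma-voom (adjusted p = 0.0517) and without any single pool except mutant pool 3 (adjusted p from 0.0502 to 0.109).

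The level of *edc4* depended on which transcripts of the locus were counted. In WT pools most of the locus was MSTRG.8520.1, an unnamed transcript of 31 exons that spans *edc4* and its neighbour *nrn1la*, at 1.92, 1.79 and 1.70 FPKM, and in mutant pools at 4.61, 0.509 and 4.38 FPKM. It overlaps the span of *nrn1la* more, so it was not counted for *edc4* by name or with assembled transcripts added. With those added, *edc4* was at 0.116, 0.339 and 0.541 FPKM in WT pools and at 7.81, 12.5 and 8.56 FPKM in mutant pools. The log2 fold change was then 4.77 (adjusted p = 0.000803 in limma). A second unnamed transcript, MSTRG.8520.8, of 18 exons inside *edc4*, was at 0, 0 and 0.0111 FPKM in WT and 5.85, 3.04 and 5.06 FPKM in mutant pools. Summed over the whole locus the values were steadier, at 2.04, 2.13 and 2.24 FPKM in WT and 12.4, 13.0 and 12.9 FPKM in mutant pools, with a log2 fold change of 2.68 (SE 0.111, adjusted p = 0.000369). The helicase gene *ddx6*, chosen after its values were seen, was at 0.790, 0.639 and 0.447 FPKM in WT and 1.08, 1.63 and 1.31 FPKM in mutant pools. Its log2 fold change of 1.197 stayed just outside the threshold (SE 0.240, adjusted p = 0.0511), and it passed in limma-voom (adjusted p = 0.0370), with assembled transcripts added (adjusted p = 0.0224) and over the whole locus (adjusted p = 0.0443). No assembled transcript was added to *ddx6*, so its FPKM differed only over the whole locus.

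Of the genes for deadenylation and the exosome, 0 of 12 passed in limma, against 3.68% of all genes. Only 1 had an unadjusted p below 0.05, against 23.0% of all genes, and the median was -0.04. The largest log2 fold change was that of *exosc10*, a nuclease of the nuclear exosome, -1.27 (SE 0.585, adjusted p = 0.256), which became 0.21 (adjusted p = 0.378) with assembled transcripts added. The deadenylase gene *cnot6a* followed at -0.56 (SE 0.127, adjusted p = 0.0652), and at -0.21 (adjusted p = 0.294) with assembled transcripts added. Without scaling *cnot6a* passed (adjusted p = 0.0222).

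The last list holds 9 stress mRNAs that NMD is known to limit in other species. In limma 2 of the 9 were higher and 0 lower at an adjusted p below 0.05, against 1.34% and 2.34% of all genes. The median log2 fold change was 0.29 beside 0.01 over all genes. An unadjusted p below 0.05 was reached by 3, beside 23.0% of all genes, and of the 3 *gadd45ab* was lower in mutants. *atf3*, a stress transcription factor, was at 0.592, 0.729 and 0.599 FPKM in WT and 1.53, 2.07 and 1.82 FPKM in mutant pools (0.640 ± 0.0770 and 1.81 ± 0.268 FPKM, SD, n = 3). Its log2 fold change was 1.56 (SE 0.162, adjusted p = 0.0107 in limma), and the call was lost only without WT pool 12 (adjusted p = 0.0584). *gadd45aa*, a growth arrest gene, was at 3.00, 1.97 and 2.16 FPKM in WT and 3.83, 4.68 and 6.07 FPKM in mutant pools (2.38 ± 0.550 and 4.86 ± 1.13 FPKM, SD, n = 3). Its log2 fold change was 1.22 (SE 0.220, adjusted p = 0.0406), and the call was lost under each of the 8 alternatives that were run for it by name (adjusted p from 0.0535 to 0.132), while it passed with assembled transcripts added (adjusted p = 0.0163). No assembled transcript was added to *gadd45aa*, so its FPKM was the same in that fit. The mutant pools of both genes were above all WT pools. The paralog *gadd45ab*, named outside the rule, was the single member with a negative value, -0.54 (adjusted p = 0.168 in limma). It was at 9.92, 13.3 and 10.5 FPKM in WT and 5.94, 8.51 and 5.48 FPKM in mutant pools, with mutant pools below all WT pools on both scales. These genes respond to stress by other routes as well, and their levels are not a measure of NMD activity.

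**Figure D5:**
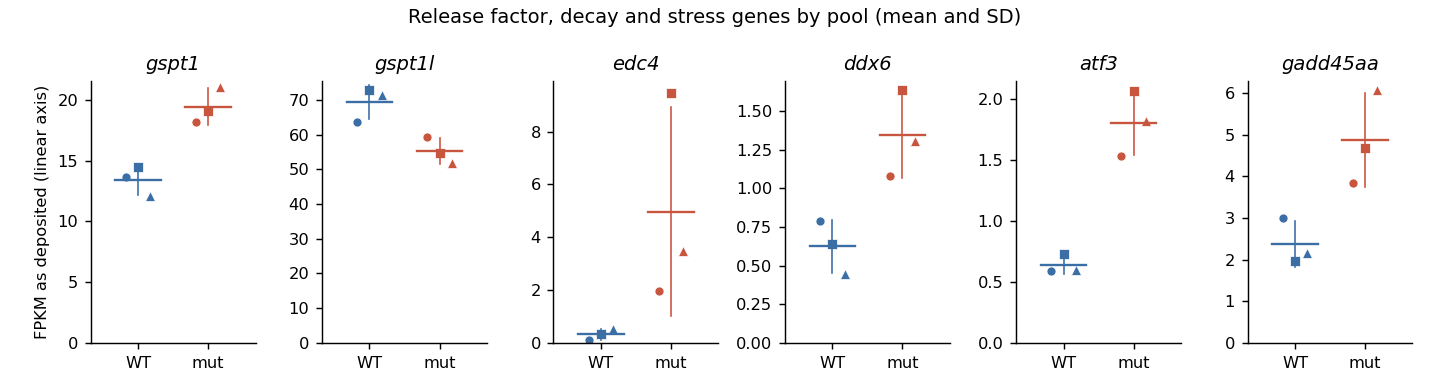
FPKM as deposited (vertical axes, linear, from 0) of *gspt1*, its paralog *gspt1l*, *edc4*, *ddx6*, *atf3* and *gadd45aa*, with circles, squares and triangles for WT clutches 12, 13 and 15 (blue) and mutant clutches 3, 4 and 7 (red), horizontal lines for means and vertical lines for 1 SD. Mutant pools lie above all WT pools except for *gspt1l*, where they lie below as deposited but overlap after scaling. *edc4* ranges from 1.96 to 9.45 FPKM among mutant pools.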

How the data were processed

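The labels gave the genotype and clutch of each pool. The reads had been quality filtered and mapped to GRCz11 by the authors (HISAT2, version 2.2.1.0), and StringTie 2.0.3 assembled and quantified transcripts. The authors deposited, per pool, the FPKM that StringTie computed and its coverage, the mean read depth per transcript. No read counts were used, so no counting error is given.

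A gene was the sum of FPKM over the transcripts with its name. For *smg1* and *smg9*, and as an alternative elsewhere, unnamed transcripts of the same locus and strand were added to the gene they overlap most. Each pool was divided by a median-of-ratios factor, and log2(FPKM + 0.1) was compared over all genes (or transcripts) that averaged 0.1 FPKM or more, with the two-sided moderated test of limma 3.58.1 (trend in eBayes, R 4.3.3) and Benjamini-Hochberg adjustment. The pseudocount understates the changes of low genes. Isoform use was the log2 ratio of a transcript to the rest of its locus, each with 0.1 FPKM added. It was fitted also for transcripts that averaged less than 0.1 FPKM, if their locus averaged 0.1 FPKM or more. Single values were compared by two-sided exact permutation tests. The test was checked on simulated data.

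Every factor is named, as are isoforms with at least 5% of their locus, called genes of each pathway list or otherwise the 2 with the largest fold change, the 3 profiles nearest to *upf1*, and *zrsr2*. The *upf3b* isoforms and rare forms are named outside this rule. The values of 1 listed gene are not reported here. The members and lists were chosen with earlier results of these data known. Alternatives were other pseudocounts (1 and 0.01), other filters, robust eBayes, no scaling, limma-voom with a read length of 150 bases, other gene definitions and each pool left out in turn. Those that combine added transcripts with no scaling or a pool left out, or add them to the pathway lists or the *upf1* profile, were chosen after seeing the data. Tables and figures were made with Python 3.11.15, pandas 2.3.3, numpy 2.4.6, scipy 1.17.1 and matplotlib 3.10.9. Sequences were not analysed here.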

Additional observations from a re-analysis of the deposited data

How the results depend on the processing

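The count of NMD factors called was 0 under all 15 alternatives for genes, all 12 for transcripts and all 11 for isoform use. *upf1*, *upf3a*, *smg8* and *smg1* kept their sign under every alternative run for them, with log2 fold changes from 0.08 to 0.43, from -0.54 to -0.24, from -0.42 to -0.08 and from -0.43 to -0.17. Signs turned for *upf3b* with the whole locus (-0.55, where *rpl39* is included), for *smg6* (-0.12) and *smg9* (-0.060) without scaling, and with a pool left out for *smg6* (-0.033 to 0.22, negative without WT pool 13) and *smg5* (-0.11 to 0.0016, positive without mutant pool 4), all at an adjusted p above 0.05 in limma. With a pool left out, that of *magoh* ran from -0.40 to 0.090, positive without WT pool 13 or mutant pool 3, and that of *rbm8a* from -0.16 to 0.034, positive without WT pool 15 or mutant pool 7. Beyond these refits, the cause of the changes of sign was not tested.

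The pathway lists held 4 called genes, 7 with assembled transcripts added, and from 0 to 2 with a pool left out. Over all genes, 736 were called by name, 1304 without scaling, 470 by limma-voom, 1790 with assembled transcripts added (of the 19978 genes tested by name) and from 94 to 580 with a pool left out. No paired analysis was possible because the genotypes share no clutch and no replicate number. With 3 pools a genotype, changes of the NMD factors inside their intervals may have been missed. The intervals are not adjusted for the number of genes, while the calls are. An interval that excluded 0 was therefore not enough for a call. An example is *cnot6a*, with an interval of -0.87 to -0.26 and an adjusted p of 0.0652 in limma.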
